A study of Mus musculus with 16 samples.

Results

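The Kupffer cell genes are 6 genes of liver-resident macrophages, Cd5l, Clec4f, Vsig4, Timd4, Marco and Folr2, chosen by name among the 18137 genes listed in the liver or the subcutaneous table. All 6 had a row in the liver table and 4 had one in the subcutaneous table. Clec4f and Marco had no row in the subcutaneous table, so their levels in treated subcutaneous tumors were not analysed here. Each row of that table was above 0 in at least 2 of its 6 libraries. In the untreated subcutaneous tumors both genes were read from the table of the untreated libraries, after removal of the constant that it adds per gene.

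Kupffer cells are the macrophages of the liver sinusoids. They sit on sinusoidal endothelium beside stellate cells and hepatocytes, take up bacteria, dying cells and aged red cells from portal blood, and recycle the iron of haem. In mice their identity is kept by signals from these neighbours and by transcription factors such as LXR alpha (Nr1h3), SPIC and ID3, and cells that replace them from monocytes acquire several of these genes slowly, Timd4 among the last.

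RNA of 16 tumors was sequenced from wild-type female BALB/c mice, 6 weeks old, implanted with 4T1, a BALB/c mammary carcinoma line that models breast cancer without hormone receptors. The groups were liver tumors of paclitaxel-treated mice (post_Liver, n = 5), untreated liver tumors (pre_Liver, n = 5), mammary fat pad tumors of paclitaxel-treated mice (post_SC, n = 3) and untreated fat pad tumors (pre_SC, n = 3), which the submitters call subcutaneous. Liver tumors came from 200000 cells placed under the liver capsule and fat pad tumors from 400000 cells, so the site and the number of cells implanted cannot be told apart. Tumors grew for 15 days. Paclitaxel, which stabilises microtubules, was given into the peritoneum at 10 mg/kg on 5 days of each of 2 weeks, and control mice had PBS; the labels do not say whether the untreated tumors were those controls or were taken earlier. The excised tissue was digested with enzymes and the cells frozen, so host cells were sequenced with the carcinoma cells. Nothing in the labels says that a replicate was a mouse of its own, so a p-value reflects only how far these libraries spread, which may be technical.

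Levels are TPM, read density per transcript length as a share of a fixed total in each library, so a rise of one cell type lowers the shares of others. The depth of the libraries is unknown. In bulk tissue fewer cells of a type and less RNA per cell cannot be told apart. Hepatocyte RNA, followed by Alb (albumin), varied more across the liver libraries than any member. Alb had 10786, 872, 734, 21906 and 11071 TPM in post_Liver replicates 1 to 5, 23247, 8231, 27940, 56772 and 61264 TPM in pre_Liver replicates 1 to 5, 1.71, 2.65 and 2.67 TPM in post_SC and 3.86, 4.22 and 0.380 TPM in pre_SC. Post_Liver replicates 2 and 3 stood apart from the other liver libraries by their low Alb and were close to each other, with r = 0.991 across genes and a difference of over 2-fold in 0.82% of genes; the next closest liver pair, pre_Liver replicates 4 and 5, had 1.72%. The members' results that rest on these 2 libraries are given with and without them.

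In the GENCODE annotation of GRCm38, Cd5l lies at chr3:87357881-87371073 on the plus strand, Clec4f at chr6:83644542-83656187 on the minus strand, Vsig4 at chrX:96247203-96293438 on the minus strand, Timd4 at chr11:46810800-46844332 on the plus strand, Marco at chr1:120474538-120505024 on the minus strand and Folr2 at chr7:101839988-101857194 on the minus strand. The members are thus on 6 chromosomes. The sequences upstream of Cd5l, Clec4f, Vsig4 and Timd4 are printed because these 4 genes varied together most closely across the liver tumors. They are RefSeq sequences of GRCm38.p6, written 5′ to 3′ on the gene's strand cut to the bases that lie before every annotated start of the gene in GENCODE and RefSeq, and capitals mark GAGGAA or its reverse complement, the core bound by PU.1, a transcription factor of all macrophages.
Cd5l, chr3:87357631-87357880, plus strand: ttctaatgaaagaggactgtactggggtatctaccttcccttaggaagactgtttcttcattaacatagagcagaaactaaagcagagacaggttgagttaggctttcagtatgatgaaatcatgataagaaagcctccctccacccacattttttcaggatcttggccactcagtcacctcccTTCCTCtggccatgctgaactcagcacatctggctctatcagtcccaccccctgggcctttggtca
Clec4f, chr6:83656188-83656366, minus strand: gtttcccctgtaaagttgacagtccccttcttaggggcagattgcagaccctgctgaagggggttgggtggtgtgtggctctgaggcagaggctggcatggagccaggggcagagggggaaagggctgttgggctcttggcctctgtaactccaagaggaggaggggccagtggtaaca
Vsig4, chrX:96293439-96293688, minus strand: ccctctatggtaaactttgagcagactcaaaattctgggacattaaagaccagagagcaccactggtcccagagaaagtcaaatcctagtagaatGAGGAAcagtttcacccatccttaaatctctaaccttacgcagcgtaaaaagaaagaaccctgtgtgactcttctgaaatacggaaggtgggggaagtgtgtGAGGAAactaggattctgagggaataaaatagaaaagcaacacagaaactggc
Timd4, chr11:46810549-46810785, plus strand: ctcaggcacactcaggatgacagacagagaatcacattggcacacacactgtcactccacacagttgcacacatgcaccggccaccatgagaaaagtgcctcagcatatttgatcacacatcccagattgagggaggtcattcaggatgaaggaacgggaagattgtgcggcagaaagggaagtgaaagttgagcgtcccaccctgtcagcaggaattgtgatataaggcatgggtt

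Motifs were searched on both strands of the 250 bases before the RefSeq start, which for Clec4f and Timd4 run past the printed end. The PU.1 core GAGGAA was found in 3 of 6 members (Cd5l, Vsig4 and Marco), against 23.3% of 32851 promoters of that length. The Maf half-site TGCTGA was in 4 of 6 (Cd5l, Clec4f, Timd4 and Folr2), against 16.1% of promoters. The RBPJ core TGGGAA was in 2 of 6, against 21.6%, the nuclear receptor half-site AGGTCA in 2 of 6, against 14%, and the box CACGTG in 0 of 6, against 6.02%. No match shared a base with a match of another of these motifs. Of the 4 printed sequences, those of Cd5l and Vsig4 held the PU.1 core.

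In untreated tumors, 5 of the 6 members were higher in the liver than in the fat pad, and Folr2 did not pass the test. Of all 13752 genes tested, 15.5% were higher in the liver by the same rule, limma with a Benjamini-Hochberg adjusted p under 0.05 on log2(TPM + 1). Differences on this scale understate the change of low genes. A gene was tested if it averaged at least 1 TPM over the libraries compared. Cd5l, Clec4f, Vsig4 and Marco averaged under 1 TPM in pre_SC, so they entered the test only through the liver libraries. For these genes the filter favoured a call in that direction, and the count of members only describes their levels. The median difference over the members was 3.74 on the log2 scale, against -0.50 over all genes tested. The shift of all genes depends on scaling and was -0.01 with median of ratios scaling, under which the same number of members, 5, passed. With that scaling 23.5% of all genes were called higher.

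Cd5l encodes a secreted scavenger receptor protein of tissue macrophages (also called AIM). It had 83.9, 63.2, 151, 96.7 and 104 TPM in pre_Liver replicates 1 to 5 and 0.041, 0.350 and 0.140 TPM in pre_SC replicates 1 to 3. Every liver library was far above every fat pad library, and Cd5l was 6.37 ± 0.27 higher as log2 (± SE; adjusted p = 2.4e-06, limma). Clec4f, a C-type lectin that in mice is made almost only by Kupffer cells, had 54.1, 35.5, 92.9, 89.8 and 86.4 TPM in pre_Liver and 0.041, 0 and 0 TPM in pre_SC. It was 6.08 ± 0.33 higher (limma adjusted p = 5.24e-06), and it was at 0 in 2 of the 3 fat pad libraries after removal of the constant. Vsig4, a complement receptor of the immunoglobulin family that captures opsonised particles, had 27.7, 17.7, 48.9, 55.8 and 48.5 TPM in pre_Liver and 0.144, 0.700 and 0.060 TPM in pre_SC. The groups did not overlap, and Vsig4 was 4.89 ± 0.39 higher (limma adjusted p = 4.52e-05).

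Timd4 (TIM-4), a receptor for phosphatidylserine on dying cells, was, with Folr2, above 0.5 TPM in every untreated fat pad tumor. Timd4 had 14.1, 9.38, 20.0, 17.9 and 16.02 TPM in pre_Liver and 2.87, 0.894 and 1.54 TPM in pre_SC, without overlap, and was 2.60 ± 0.31 higher (limma adjusted p = 0.000436). Marco, a class A scavenger receptor for bacteria and particles, had 4.00, 2.99, 11.9, 3.602 and 1.95 TPM in pre_Liver. It was at 0 in all 3 pre_SC libraries after removal of the constant. Its difference was 2.35 ± 0.42 (limma adjusted p = 0.00434), a size that depends on the pseudocount, and pre_Liver replicate 3 was the highest by a wide margin. Folr2, the folate receptor beta found on resident macrophages of many tissues, had 28.9, 12.1, 18.7, 20.5 and 19.5 TPM in pre_Liver and 7.73, 20.7 and 29.2 TPM in pre_SC. The groups overlapped and the difference was 0.18 ± 0.41 (limma adjusted p = 0.722); without pre_SC replicate 1 it was -0.34.

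**Figure D1:**
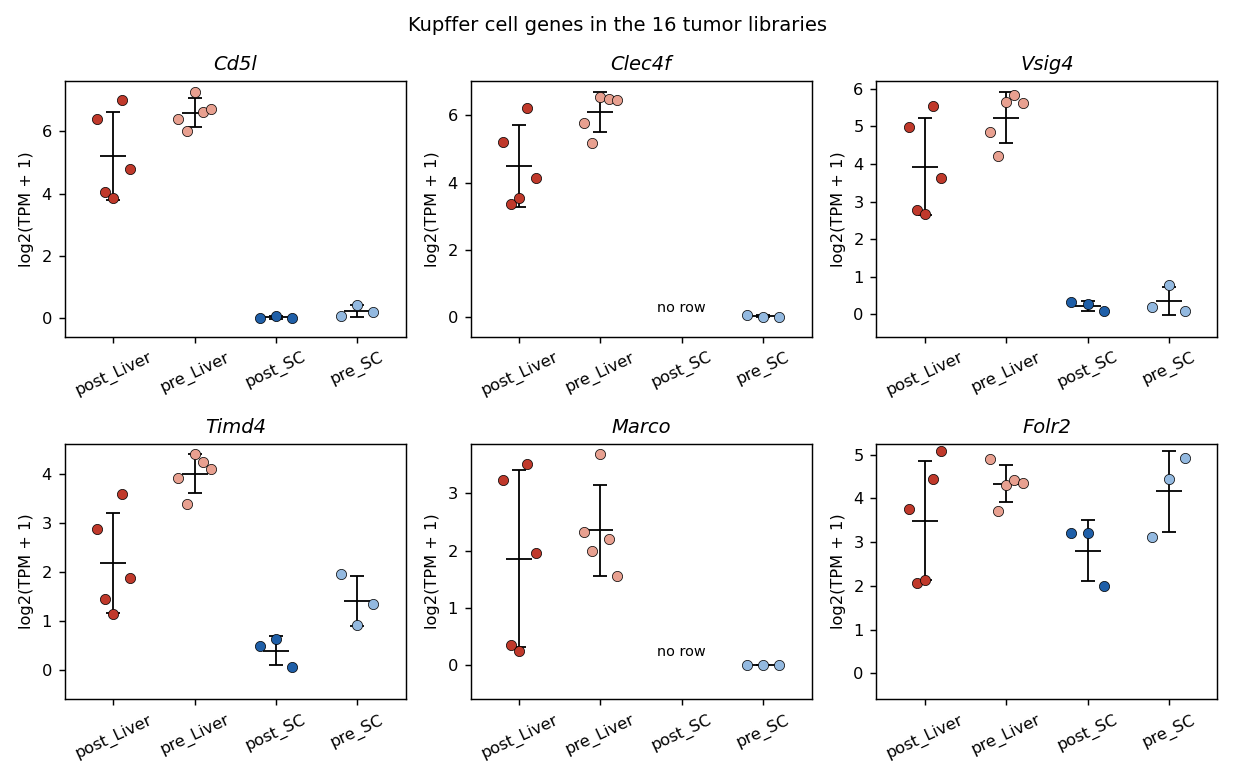
Level of each member in each library as log2(TPM + 1), with post_Liver, pre_Liver, post_SC and pre_SC from left to right; points are libraries, bars the mean and SD of the log2 values. Cd5l, Clec4f, Vsig4 and Marco lay near 0 in the fat pad libraries that had a value, whereas Folr2 overlapped between sites; "no row" marks genes absent from the subcutaneous table.

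Within the libraries to which the authors' table of untreated tumors had added 1 shared constant per gene, pre_Liver replicates 1 to 3 against pre_SC, the differences were 6.33 for Cd5l, 5.82 for Clec4f, 4.55 for Vsig4, 2.49 for Timd4, 2.67 for Marco and 0.14 for Folr2, and the same number of members, 5, passed the test. In that setting 14.8% of all genes tested were called higher. The Alb difference between the sites was larger than that of any member. All 10 hepatocyte genes were higher in untreated liver tumors, and the sum of their levels was 35892 to 151260 TPM there and 78.0 to 173 TPM in the untreated fat pad tumors. All 8 carcinoma genes were lower, with sums of 563 to 2686 TPM in pre_Liver and 4310 to 4544 TPM in pre_SC; of all genes tested, 32.4% were called lower in this comparison, the share against which the lower genes of this and the other lists are to be read. The part of tumor purity in the members' differences was not tested.

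Genes shared by most macrophages did not differ in this way. Of 10 pan-macrophage genes, 1 was higher in untreated liver tumors and 0 lower, with a median difference of -0.08 and sums of 1826 to 4025 TPM in pre_Liver and 2116 to 2747 TPM in pre_SC. The gene that passed was Mertk, a receptor for apoptotic cells, at 1.30 ± 0.25 (limma adjusted p = 0.00607). Csf1r, the receptor for CSF1, averaged 101 ± 19.2 TPM in pre_Liver (SD, n = 5) and 79.0 ± 16.7 TPM in pre_SC (SD, n = 3) and did not pass (limma adjusted p = 0.182).

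Other genes of Kupffer cell identity were higher in the liver for 5 of the 7 that could be tested. Clec1b, a platelet and Kupffer cell lectin, was 3.41 ± 0.30 higher, Hpgd, which degrades prostaglandins, 5.03 ± 0.60, C6, a complement component, 2.12 ± 0.41 and Fcna, a ficolin, 2.31 ± 0.53. Siglec1 also passed, while Cd163, the haemoglobin scavenger receptor, averaged 6.93 ± 1.82 TPM in pre_Liver (SD, n = 5) and 10.0 ± 7.39 TPM in pre_SC (SD, n = 3) and did not. Among 6 transcription factors, Nr1h3 (3.29 ± 0.43) and Spic (1.84 ± 0.27) were higher and Id1 (-1.71 ± 0.57) was lower; the Id1 call was lost with median of ratios scaling (limma adjusted p = 0.056) and without any 1 of the pre_SC libraries (0.0889 to 0.117) or of pre_Liver replicates 3 (0.0573), 4 (0.0616) and 5 (0.0673). Id3 averaged 112 ± 59.4 TPM in pre_Liver (SD, n = 5) and 158 ± 21.3 TPM in pre_SC (SD, n = 3) and did not pass the test.

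Of 7 genes for red cell and iron recycling, 4 were higher in untreated liver tumors. Slc40a1, the iron exporter ferroportin, was 4.33 ± 0.40 higher and Blvrb, a biliverdin reductase, 1.89 ± 0.27; Hpx and Cp, plasma proteins that hepatocytes secrete, made up the rest. Of 7 niche signals tested, Gdf2 (BMP9, from stellate cells; 3.42 ± 0.42) and Bmp2 (2.09 ± 0.40) were higher, whereas the CSF1 receptor ligands Csf1 (-1.51 ± 0.29) and Il34 (-1.12 ± 0.26) and the Notch ligand Dll1 (-1.34 ± 0.32) were lower. The Il34 call was lost without pre_SC replicate 3 (limma adjusted p = 0.053). Of the members' relatives by protein family, 9 of 12 were tested and 3 were higher, among them Timd2, of the TIM family (5.31 ± 0.46), and Cd36, a class B scavenger receptor (1.65 ± 0.41), and 2 were lower, the lectin Clec4n (-1.34 ± 0.26) and the class A scavenger receptor Msr1 (-0.69 ± 0.19). The Cd36 call was lost without pre_SC replicate 1 (limma adjusted p = 0.0725).

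Sinusoidal endothelial genes were higher in the liver for 6 of 8. Stab2, a hyaluronan receptor, averaged 16.3 ± 5.28 TPM in pre_Liver (SD, n = 5) and 0.033 ± 0.012 TPM in pre_SC (SD, n = 3), and Clec4g 72.3 ± 42.7 TPM and 0.134 ± 0.049 TPM in the same groups. Of 7 genes of other resident macrophages 3 were higher and 2 lower. Gata6, a factor of peritoneal macrophages, was 2.77 ± 0.27 higher in untreated liver tumors, with 8.67 ± 2.55 TPM in pre_Liver (SD, n = 5) and 0.397 ± 0.268 TPM in pre_SC (SD, n = 3). The splenic marginal zone lectin Cd209b was at 1.14 TPM or less in every pre_Liver library and at 1.32 TPM or less in every pre_SC library. Of the remaining lists, 3 of 8 recruited monocyte genes were higher and 1 lower, and 1 of 8 tumor-associated macrophage genes higher and 2 lower. The higher monocyte genes included F10 (4.37 ± 0.55), which also rose with Alb across the liver libraries (slope 0.69 ± 0.06, fit given below). The 1 higher macrophage gene was Apoe (3.26 ± 0.47). Of 8 stellate cell genes 4 were higher and 1 lower, and 4 of 5 B cell genes and 3 of 8 neutrophil genes were higher.

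In treated tumors, 2 of the 4 members with a row in both tables were higher in the liver, against 6.62% of the 13952 genes tested. Cd5l, Vsig4 and Timd4 averaged under 1 TPM in post_SC, so they too entered the test only through the liver libraries. Cd5l had 82.7, 15.4, 13.5, 127 and 26.4 TPM in post_Liver replicates 1 to 5 and 0, 0.057 and 0 TPM in post_SC. It was 5.19 ± 0.71 higher (limma adjusted p = 0.0033) without overlap of the groups. Vsig4 had 30.7, 5.89, 5.37, 46.0 and 11.5 TPM in post_Liver and 0.263, 0.208 and 0.058 TPM in post_SC, a difference of 3.70 ± 0.66 (limma adjusted p = 0.0111). Its groups did not overlap, but the adjusted p was 0.051 without post_SC replicate 1 and 0.0623 without post_SC replicate 3.

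Timd4 had 6.33, 1.74, 1.21, 11.1 and 2.66 TPM in post_Liver and 0.413, 0.549 and 0.038 TPM in post_SC. Its difference of 1.79 ± 0.55 did not pass the test (limma adjusted p = 0.0738), although the groups did not overlap. Folr2 had 12.6, 3.15, 3.37, 20.6 and 33.3 TPM in post_Liver and 8.32, 8.18 and 2.99 TPM in post_SC, with overlap and a difference of 0.69 ± 0.73 (limma adjusted p = 0.539). Without post_Liver replicates 2 and 3, all 4 members passed, at 6.03 for Cd5l, 4.50 for Vsig4, 2.39 for Timd4 (limma adjusted p = 0.00525) and 1.63 for Folr2 (limma adjusted p = 0.0231), but the share of all genes called higher was also larger there, 17.0% of 13894. Clec4f had 36.3, 9.20, 10.6, 73.6 and 16.4 TPM and Marco 8.43, 0.275, 0.183, 10.5 and 2.88 TPM in post_Liver, with no comparison to treated fat pad tumors.

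Among the other lists in treated tumors, Clec1b (3.01 ± 0.32) and Hpgd (3.98 ± 0.78) were the 2 of 7 identity genes that were higher in the liver. Nr1h3 (2.46 ± 0.59), Spic (1.51 ± 0.31), Slc40a1 (3.87 ± 0.44), Blvrb (1.79 ± 0.34), Gdf2 (2.77 ± 0.59) and Timd2 (2.88 ± 0.74) were higher too, and 3 of 8 sinusoidal endothelial genes. Hpgd, Nr1h3, Blvrb, Gdf2 and Timd2 lost their calls without post_SC replicate 1 and Spic without post_SC replicate 2, with limma adjusted p of 0.0651 to 0.135. Without post_SC replicate 3 all 6 of these lost them (0.0772 to 0.165), and without post_Liver replicate 1 Nr1h3 (0.0847), Spic (0.0537), Gdf2 (0.0607) and Timd2 (0.1) did; Gdf2 (0.0663) and Timd2 (0.109) also did without post_SC replicate 2, and Nr1h3 (0.0737) and Timd2 (0.0871) without post_Liver replicate 5. Of 10 pan-macrophage genes 1 was higher, the lysozyme gene Lyz2 (1.51 ± 0.34), and its call was lost without any 1 of the post_SC libraries (0.0505 to 0.133), and without post_Liver replicate 1 (0.0674) or 5 (0.059).

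After paclitaxel, no member passed the test in liver tumors: 0 of 6 were called, and 1.3% of the 13843 genes tested were called lower. At an unadjusted p under 0.05, 4 of 6 passed, as did 4452 of all genes (32.2%) in either direction. All 6 estimates lay below 0, with a median of -1.35, against 0.39 for all genes, which was 0.03 with median of ratios scaling. The post_Liver and pre_Liver values, given above for each member, overlapped for every member. Post_Liver replicates 2 and 3 were the lowest of the 10 liver libraries for all 6 members, and post_Liver replicate 4 lay within the untreated range for each of them.

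Timd4 averaged 4.60 ± 4.13 TPM in post_Liver and 15.5 ± 4.07 TPM in pre_Liver (SD, n = 5 each). Its difference of -1.82 ± 0.45 lay at the threshold (limma adjusted p = 0.0513); it was called with FPKM as deposited (adjusted p = 0.0467), without pre_Liver replicate 2 (0.0235) and without post_Liver replicate 4 (0.0161). Clec4f averaged 29.2 ± 27.1 TPM in post_Liver and 71.8 ± 25.6 TPM in pre_Liver (SD, n = 5 each), a difference of -1.61 ± 0.54 (limma adjusted p = 0.096), and was called without pre_Liver replicate 2 (0.0391) and without post_Liver replicate 4 (0.029). Cd5l averaged 53.0 ± 50.0 TPM in post_Liver and 99.9 ± 32.6 TPM in pre_Liver (SD, n = 5 each), a difference of -1.39 ± 0.59 (limma adjusted p = 0.141), and was called without post_Liver replicate 4 alone (0.0427). Of all genes, 7.55% were called lower without pre_Liver replicate 2, 6.33% without post_Liver replicate 4 and 1.41% with FPKM. The treated group was the more variable for these genes.

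Vsig4 averaged 19.9 ± 17.9 TPM in post_Liver and 39.7 ± 16.2 TPM in pre_Liver (SD, n = 5 each), a difference of -1.31 ± 0.58 (limma adjusted p = 0.153). Folr2 differed by -0.84 ± 0.57 (limma adjusted p = 0.284), with its highest value of all 10 liver libraries in post_Liver replicate 5. Marco differed by -0.49 ± 0.69 (limma adjusted p = 0.584), with the 2 lowest values in post_Liver and the highest in pre_Liver replicate 3. Without post_Liver replicates 2 and 3 the differences were -0.54 for Cd5l, -0.91 for Clec4f, -0.51 for Vsig4, -1.22 for Timd4, 0.55 for Marco and 0.09 for Folr2, and none passed. Against pre_Liver replicates 1 to 3 alone the differences were -1.34 for Cd5l, -1.35 for Clec4f, -0.97 for Vsig4, -1.71 for Timd4, -0.81 for Marco and -0.81 for Folr2. Against pre_Liver replicates 4 and 5 alone they were -1.45, -1.99, -1.80, -1.98, -0.02 and -0.90 for the same genes in that order, and Timd4 passed (limma adjusted p = 0.0435), in a setting that called 7.08% of all genes lower.

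Genes of other cell types were set beside the members in the same comparison. Alb, with the values given above, differed by -2.69 ± 1.06 and did not pass (limma adjusted p = 0.125). Of the 10 hepatocyte genes 0 passed. Their sum was 3972 to 94517 TPM in post_Liver and 35892 to 151260 TPM in pre_Liver, so the groups overlapped. All 8 neutrophil genes rose in treated liver tumors, with sums of 3298 to 21145 TPM in post_Liver and 156 to 1399 TPM in pre_Liver. Of 8 genes of recruited monocytes 2 rose, among them Chil3 (4.77 ± 0.46, limma adjusted p = 0.00224). The lowest estimate was -1.74 for F10, a gene that rose with Alb in the fit given below (slope 0.69 ± 0.06). For F10 a change in monocytes cannot be told apart from one in hepatocyte RNA. Of all genes tested, 2.35% were called higher. The 10 pan-macrophage genes had 0 calls and a median of 0.57, and their sum was 2130 to 9131 TPM in post_Liver and 1826 to 4025 TPM in pre_Liver. None of the other Kupffer cell identity genes, transcription factors, iron recycling genes, niche signals or relatives passed. The part of these cell types in the members' differences was not tested, and a fit with Alb is given below.

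In fat pad tumors only Timd4 and Folr2 reached the minimum mean of 1 TPM for a test of the response, and neither passed, while 4.34% of the 13339 genes tested were called lower. Both had an unadjusted limma p under 0.05, as did 3661 of the genes tested (27.4%). Timd4, with the values given above, was lower in every treated than in every untreated fat pad tumor, a difference of -1.01 ± 0.33 (limma adjusted p = 0.104). Folr2 differed by -1.36 ± 0.51 (limma adjusted p = 0.14), and its groups overlapped. Cd5l averaged 0.019 ± 0.033 TPM in post_SC and 0.177 ± 0.158 TPM in pre_SC, and Vsig4 0.176 ± 0.106 TPM and 0.301 ± 0.348 TPM in the same groups (SD, n = 3 each), below the minimum. Of 8 relatives tested 1 fell in these tumors, Msr1 (-1.09 ± 0.18). Of 7 iron recycling genes 2 fell, among them the haem oxygenase Hmox1 (-1.44 ± 0.21). Of 10 pan-macrophage genes 1 rose, Mertk (1.73 ± 0.28), against 2.71% of all genes tested. The calls of Msr1, Hmox1 and Mertk were lost without pre_SC replicate 3 (limma adjusted p of 0.0959, 0.071 and 0.07 in that order). Each was also lost without at least 1 other pre_SC library.

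The difference between the responses, liver minus fat pad, did not pass for any of the 4 members in this fit. At an unadjusted limma p under 0.05 it was also 0 of 4. Of the 13875 genes tested, 2.98% passed in either direction. Cd5l and Vsig4 were below the minimum mean in fat pad tumors and entered this fit only through the liver libraries. On log2(TPM + 1) their fat pad values lay near 0, so their estimates largely repeat the liver response. It was -1.19 ± 0.82 for Cd5l (limma adjusted p = 0.35), -1.19 ± 0.82 for Vsig4 (0.351), -0.80 ± 0.66 for Timd4 (0.43) and 0.51 ± 0.90 for Folr2 (0.72). The estimate for Timd4 was too small beside its standard error to pass, which does not show that Timd4 responded alike at both sites.

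The members rose with hepatocyte RNA across the 10 liver libraries. In a fit with group and Alb together, 6 of 6 members rose with Alb, against 15.1% of the 13842 genes tested, and 36.2% of genes fell. The slopes, in log2 units of the member per log2 unit of Alb, were 0.52 ± 0.08 for Vsig4 (limma adjusted p = 0.00117), 0.46 ± 0.09 for Clec4f (0.00256), 0.48 ± 0.10 for Folr2 (0.00334), 0.36 ± 0.08 for Timd4 (0.00433), 0.48 ± 0.11 for Cd5l (0.00577) and 0.49 ± 0.15 for Marco (0.0215). The members' median slope was 0.48, against -0.09 for all genes. With median of ratios scaling 27.1% of genes rose, and still 6 of 6 members. The 9 other hepatocyte genes had slopes of 0.70 to 1.23 with a median of 0.78, so the members changed by less than hepatocyte RNA did.

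**Figure D2:**
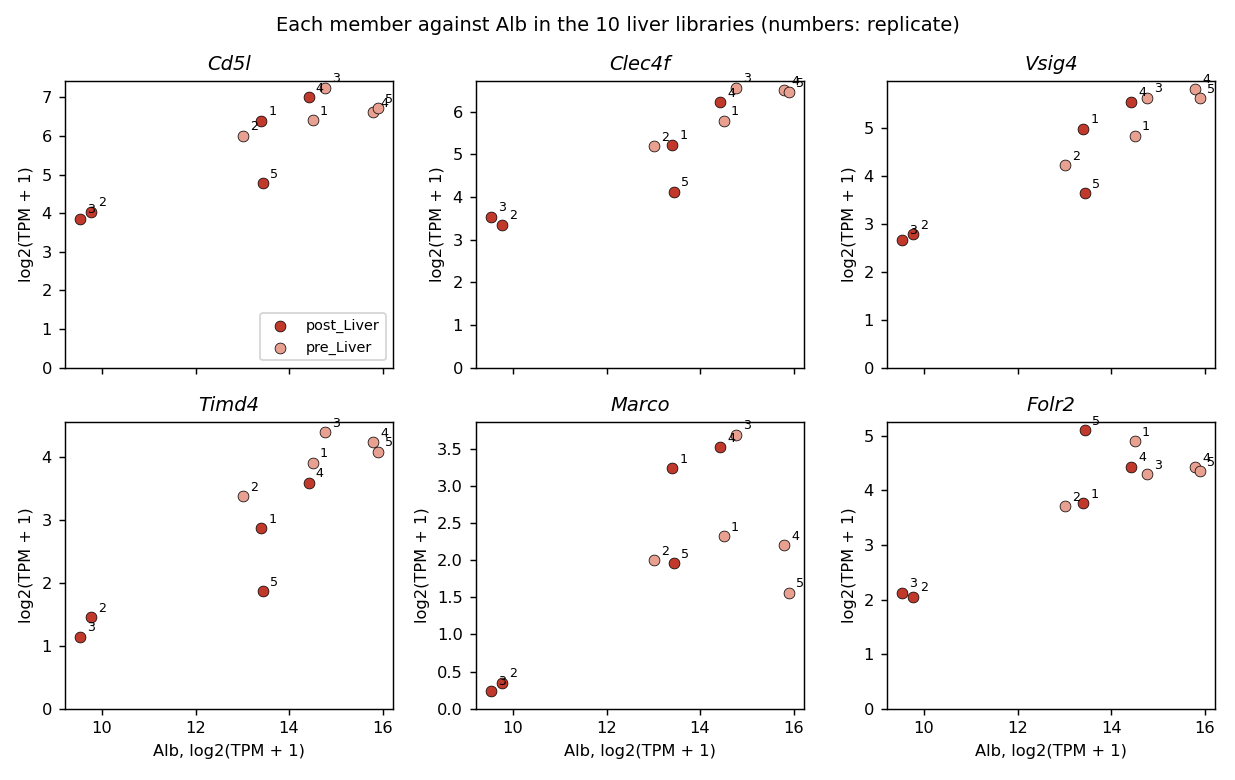
Each member against Alb in the 10 liver libraries, both as log2(TPM + 1), with post_Liver in dark red, pre_Liver in light red and replicate numbers beside the points. Post_Liver replicates 2 and 3 lay at the low end of both axes for each member, and Marco and Folr2 showed no clear rise among the other 8 libraries (r = -0.148 and 0.250).

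Without post_Liver replicates 2 and 3, Vsig4 (0.61 ± 0.18; limma adjusted p = 0.0165) and Clec4f (0.57 ± 0.18; 0.0245) still rose with Alb, against 11.8% of 13698 genes. The other members no longer passed, with slopes of 0.35 for Cd5l (0.217), 0.37 for Timd4 (0.0828), 0.18 for Folr2 (0.391) and 0.03 for Marco (0.934). Marco also missed the threshold without post_Liver replicate 2 (0.0765), without replicate 3 (0.089) and without replicate 4 (0.1) of that group. The slopes of Marco and Folr2 lay nearer 0 without the 2 libraries, whereas that of Timd4 had the same size (0.37, and 0.36 with all 10) and lost only its call. The members' median slope was 0.36 in the 8 libraries, against -0.26 for all genes, of which 53.4% fell. Pre_Liver replicates 4 and 5 had the highest Alb of all liver libraries. They also had a constant apart from that of pre_Liver replicates 1 to 3 in the table of untreated tumors. Within pre_Liver, with 8 or with 10 libraries, Alb and that set cannot be fully told apart. A slope without both of them was not computed.

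As plain correlations of log2(TPM + 1) over the 10 libraries, Pearson's r with Alb was 0.936 for Vsig4, 0.925 for Clec4f, 0.905 for Timd4, 0.889 for Cd5l, 0.868 for Folr2 and 0.687 for Marco. The permutation p was 0.00016, 0.00016, 0.00023, 0.00132, 0.00617 and 0.0283 in the same order, and after adjustment over all 21 relations computed it was at most 0.0329. Spearman's rho was 0.879, 0.891, 0.903, 0.830, 0.612 and 0.442 in that order, and with permutation p of 0.0674 for Folr2 and 0.203 for Marco these rank correlations did not pass. Without the 2 libraries farthest from the median of Alb, which were post_Liver replicates 2 and 3, r was 0.800 (exact permutation p = 0.0167) for Vsig4, 0.812 (exact permutation p = 0.0146) for Clec4f, 0.733 (exact permutation p = 0.0348) for Timd4, 0.562 (exact permutation p = 0.145) for Cd5l, 0.250 (exact permutation p = 0.541) for Folr2 and -0.148 (exact permutation p = 0.711) for Marco. Adjusted over the 21 relations, Vsig4 and Clec4f passed there (0.0438 each) and Timd4 did not (0.0812). With group means removed, r lay between 0.729 and 0.903 for the 6 members. Each set of libraries that shared a constant in the table of untreated tumors held too few libraries for a correlation of its own.

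Of the members, 4 varied closely together. Pearson's r between Cd5l, Clec4f, Vsig4 and Timd4 was 0.941 to 0.982 over the 10 liver libraries and 0.840 to 0.956 without post_Liver replicates 2 and 3, with adjusted permutation p of at most 0.000537 and 0.0392; Spearman's rho was 0.903 to 0.964 and 0.809 to 0.952. Marco correlated with these at 0.693 to 0.852, and at 0.164 to 0.548 without those libraries (adjusted permutation p at most 0.0329, and at least 0.288 without them; rho 0.636 to 0.77 over all 10). Folr2 correlated with the other 5 at 0.672 to 0.700, and at -0.360 to -0.162 without those libraries, so its relation to them rests on those libraries; over all 10 its rho was 0.382 to 0.442 (adjusted permutation p at least 0.251).

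Each gene's share of the members' summed TPM was more even. Clec4f held 17.6% to 30.9% of the sum in post_Liver and 25.2% to 31.6% in pre_Liver, and Timd4 2.86% to 4.88% in post_Liver and 5.79% to 6.66% in pre_Liver. The Timd4 shares of the groups did not overlap. Folr2 held 35.7% in post_Liver replicate 5, against 7.09% to 9.86% in the other treated libraries and 5.44% to 13.6% in the untreated ones. Cd5l held the largest share in every liver library other than post_Liver replicate 5, at 34.0% to 46.7%.

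As a ratio to Alb, the sum of the members was highest where Alb was lowest, an order that having Alb as the denominator favours. Per 10000 TPM of Alb, the 6 members together had 164, 409, 466, 132 and 84.1 TPM in post_Liver replicates 1 to 5 and 91.5, 171, 123, 50.1 and 45.2 TPM in pre_Liver replicates 1 to 5. The groups overlapped, and post_Liver replicates 2 and 3 were the highest. Marco alone had its highest ratio in post_Liver replicate 1 (7.81), with 3.15 and 2.50 in post_Liver replicates 2 and 3. Between the lowest and the highest liver library Alb ranged 83.5-fold, whereas Cd5l ranged 11.2-fold, Clec4f 10.1-fold, Vsig4 10.4-fold, Timd4 16.6-fold, Folr2 10.5-fold and Marco 64.7-fold.

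**Figure D3:**
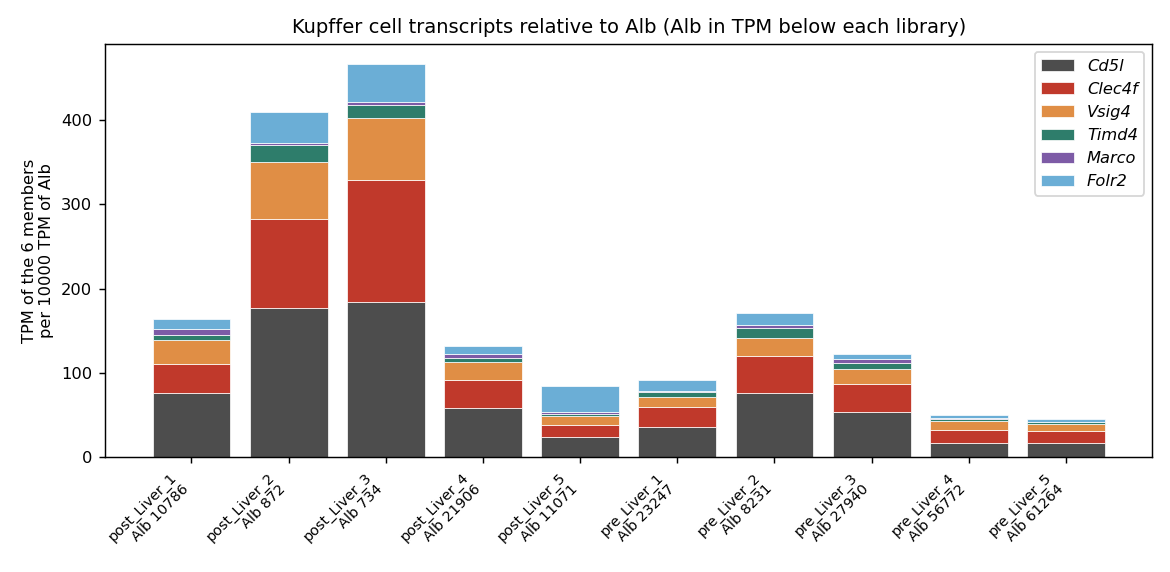
TPM of the 6 members per 10000 TPM of Alb in each liver library, post_Liver to the left of pre_Liver, stacked by gene, with the Alb level below each bar. The highest bars were post_Liver replicates 2 and 3 (409 and 466), where Alb was lowest, and the lowest were pre_Liver replicates 4 and 5 (50.1 and 45.2), where Alb was highest.

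Other cell types of the liver rose with Alb as well. All 8 sinusoidal endothelial genes did, with slopes of 0.33 to 0.79 and a median of 0.47, close to the members' median; Stab2 had 0.41 ± 0.08 and Clec4g 0.79 ± 0.08. Of 7 other Kupffer cell identity genes tested, 5 rose, led by Hpgd (0.72 ± 0.06) and Fcna (0.71 ± 0.07), with Clec1b at 0.22 ± 0.06. Among transcription factors Nr1h3 (0.48 ± 0.06) and Zeb2 (0.30 ± 0.08) rose, and the niche signals Gdf2 (0.53 ± 0.04), Bmp2 (0.49 ± 0.05) and Dll4 (0.29 ± 0.05) did too. Of 10 pan-macrophage genes 4 rose, with a list median of 0.29; the largest slope was that of the mannose receptor Mrc1 (0.62 ± 0.10). Adgre1 (0.33 ± 0.09), which encodes the macrophage antigen F4/80, and Csf1r (0.39 ± 0.09) also rose, but without post_Liver replicates 2 and 3 their slopes were -0.06 and -0.04. The same holds for Siglec1 (-0.10) and Zeb2 (-0.02). Without these 2 libraries 4 of 8 sinusoidal endothelial genes rose (median slope 0.38), 3 of 7 identity genes rose and 1 fell (median 0.31), 3 of 7 niche signals rose and 3 fell, 0 of 10 pan-macrophage genes rose and 1 fell (median -0.10), and Mrc1 had a slope of 0.27 (limma adjusted p = 0.195). Over all 10 liver libraries, 0 of 8 neutrophil genes passed in either direction, and 5 of 8 carcinoma genes fell. Without post_Liver replicates 2 and 3, still 0 of 8 neutrophil genes passed, and 8 of 8 carcinoma genes fell (median -1.36), as did 53.4% of all genes.

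**Figure D4:**
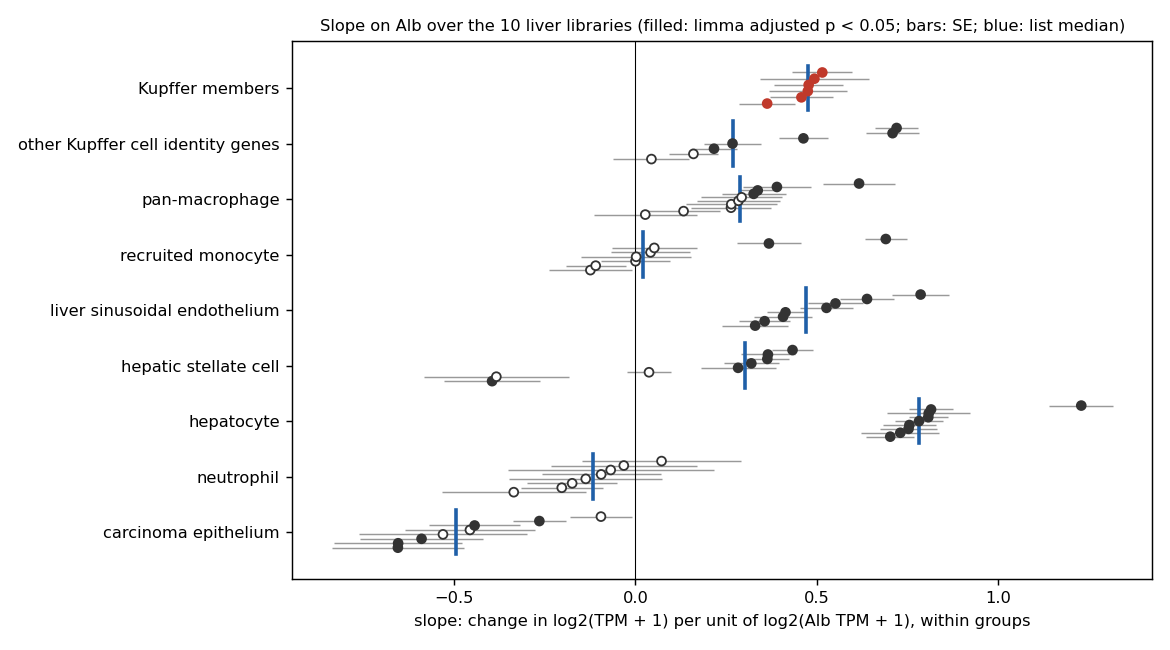
Slopes on Alb over the 10 liver libraries for each tested gene of 9 lists, with SE; filled points passed the test (limma adjusted p under 0.05) and blue bars are list medians. The 6 members lay between 0.36 and 0.52, near the sinusoidal endothelial genes (median 0.47), below the hepatocyte genes (median 0.78) and above the carcinoma genes (median -0.49).

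With Alb in the fit, the members' estimates of the response of liver tumors to paclitaxel lay on both sides of 0. None of 6 passed, 1 of 6 had an unadjusted limma p under 0.05, as did 2845 of all genes (20.6%), and 2.52% of 13842 genes passed in either direction. The estimates were -0.11 ± 0.45 for Cd5l, -0.38 ± 0.37 for Clec4f, 0.08 ± 0.35 for Vsig4, -0.84 ± 0.33 for Timd4 (limma adjusted p = 0.183), 0.83 ± 0.64 for Marco and 0.44 ± 0.40 for Folr2. Timd4 had the lowest estimate with and without Alb in the fit. Treatment and hepatocyte RNA cannot be fully told apart in the fit with Alb, because Alb was lowest in post_Liver replicates 2 and 3. Without post_Liver replicates 2 and 3 the estimates were -0.18 for Cd5l, -0.31 for Clec4f, 0.13 for Vsig4, -0.84 for Timd4, 0.58 for Marco and 0.28 for Folr2, and none passed. In the fit with Alb over all 10 liver libraries, 1 of 7 identity genes was higher in treated tumors, C6 (1.48 ± 0.28). Of 10 pan-macrophage genes 2 were, Mertk (1.29 ± 0.22) and Mrc1 (2.17 ± 0.42), against 1.91% of all genes. Each had a limma adjusted p of 0.0354 or below, but without post_Liver replicate 4 these adjusted p were 0.212, 0.163 and 0.164. Genes called in either direction numbered 349, and 1 to 987 with 1 library left out. The median of the 10 pan-macrophage genes was 1.35, against -0.02 for the members and 0.06 for all genes.

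**Figure D5:**
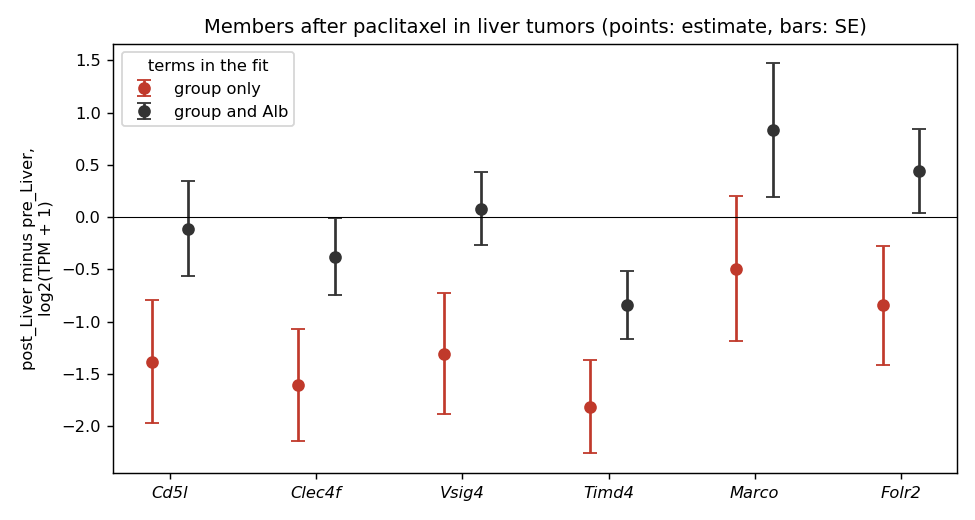
Difference between post_Liver and pre_Liver for each member on the log2(TPM + 1) scale, from the fit with group alone (red, left) and with group and Alb (black, right); points are estimates and bars SE. The median over the members was -1.35 with group alone and -0.02 with Alb in the fit, and no member passed in either fit.

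Among the groups with a value, pre_Liver had the highest mean for each of the 6 members and post_Liver the next highest for 5 of them. Clec4f and Marco had no value in post_SC, so their order leaves that group out. For Folr2, post_Liver (14.6 ± 12.7 TPM, SD, n = 5) came below both pre_Liver (19.9 ± 5.995 TPM, SD, n = 5) and pre_SC (19.2 ± 10.8 TPM, SD, n = 3). Of the neighbours in these orders, post_Liver and pre_Liver did not differ beyond the test for any member.

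Among 11395 genes with a mean of at least 5 TPM, those whose level followed the members' mean log2(TPM + 1) most closely over the 10 liver libraries, with group means removed, were Lyve1 (r = 0.990), B3galt1 (0.982), Cyp2d9 (0.977), Rnd2 (0.976), C4bp (0.973) and Il6ra (0.972). Lyve1 encodes a hyaluronan receptor of sinusoidal and lymphatic endothelium, Cyp2d9 a cytochrome P450, C4bp a complement regulator and Il6ra the receptor for interleukin-6. Stab2 was at rank 9 (r = 0.970), Clec4g at rank 209 (0.921) and Alb at rank 311 (0.906). The general macrophage genes Csf1r (0.732) and Adgre1 (0.680) were at ranks 1304 and 1574. Without post_Liver replicates 2 and 3, Lyve1 (0.975) was at rank 3, Il6ra (0.977) at rank 2, Rnd2 (0.968) at rank 4, Cyp2d9 (0.913) at rank 17, Alb (0.631) at rank 944, Csf1r at -0.485 and Adgre1 at -0.584. These correlations describe 10 libraries that differ in cell make-up, and the libraries are shared by all genes.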

How the data were processed

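Per the submitters' processing notes, fastp and StringTie were used with GRCm38/mm10; roles and versions are not given in the sources used here. The authors deposited FPKM for the 10 liver libraries and TPM for the 6 subcutaneous libraries, as read from the column sums (511645 to 547765, and 1000000). Another table that the authors deposited, of the 8 untreated libraries, holds TPM plus a constant (a score of no fixed unit) per gene and set of libraries, with 2382 genes below 0, so its unit is not the one the design assumed; the constant was removed, within 9.6e-06 TPM. This gave the pre_SC levels of Clec4f and Marco. Depth is unknown.

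TPM was recomputed within each library over the 17426 genes shared by the liver and subcutaneous tables. Genes with a mean of at least 1 TPM in the libraries of a fit were tested with limma 3.58.1 in R 4.3.3 (lmFit, eBayes with trend) on log2(TPM + 1), with group as the term and, for slopes, Alb, with calls at 0.05 after Benjamini-Hochberg adjustment over all genes tested. Correlations used 100000 permutations, or all of them below 10 libraries. The fits were run on simulated data with independent noise per gene and a capped spread. Real libraries share cell make-up across genes and can spread more, so that run does not show how the fits behave here. Python 3.11.15, NumPy 2.4.6, pandas 2.3.3 and matplotlib 3.10.9 were used. Named besides the members were up to 4 genes per list and comparison in order of p, Alb, the 6 genes most like the members, and a few genes singled out after their values were seen (Id3, Cd163, Csf1r, Cd209b, Siglec1, Adgre1, Dll1, Msr1, Clec1b, Stab2 and Clec4g outside their place in that order). Members and the 15 other lists were chosen with earlier results of these data known. Alternatives covered scaling, pseudocount, filter, libraries left out and a replicate block. Those without post_Liver replicates 2 and 3 together, and with shared genes only, were chosen after seeing the data. Some genes of these lists are not reported here.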

Additional observations from a re-analysis of the deposited data

Results flagged for a closer look

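Marco in pre_Liver replicate 3 had 11.857 TPM, farther from the other pre_Liver libraries (1.95 to 4.00 TPM) than Dixon's criterion for 5 samples allows. Of 14 groups examined in this way (6 members and Alb in each liver group) 1 was flagged, and chance flags about 1 in 20. Alb in that library was 27940 TPM, the median of its group.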

How the results depend on the processing

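Of 672 alternative values for single members, 626 kept their direction and side of the threshold, 16 gained a call, 14 lost one and 16 reversed; the causes were not tested except where named. Members called for the untreated site difference numbered 5, and 3 with all 4 groups in 1 fit or with shared genes only, where Clec4f and Marco have no row by construction. Of all genes, 15.5% were called higher as reported, 14.4% with all 4 groups and 14.9% with shared genes only. For the treated site difference the number was 2, 4 without post_Liver replicates 2 and 3, and 1 to 3 with 1 library left out. The share of all genes called higher was 6.62%, 17.0% and 2.25% to 7.97% in that order. For the liver response it was 0, 2 with a replicate block and 0 to 3 with 1 library left out. It was 1 each with all 4 groups in 1 fit, without pre_Liver replicates 1 to 3 and with FPKM as deposited. The share of all genes called lower was 1.30% as reported, 7.30% with the block and 0.231% to 7.55% with 1 library left out. It was 5.80% with all 4 groups, 7.08% without pre_Liver replicates 1 to 3 and 1.41% with FPKM. For the slope on Alb it was 6, and 2 each with the replicate block and without post_Liver replicates 2 and 3. Of all genes, 15.1% rose as reported, 1.37% with the block and 11.8% without those libraries. Correlations with Alb at an unadjusted permutation p under 0.05 numbered 6, and 3 without the 2 libraries farthest from the median. Of these 3, 2 passed after adjustment over the 21 relations. The replicate numbers do not pair the samples: same-numbered liver libraries had deviations correlated at -0.126 to 0.736, and 1 of 5 numbers matched its own best, so the block stands only here. Reversed values under the block were -0.1573 (Folr2, treated site difference), -0.2985 (Folr2, difference between responses), and 0.9843 (Cd5l) and 0.0772 (Clec4f) for the response at equal Alb. Without post_Liver replicates 2 and 3 the liver response was 0.5507 for Marco and 0.0935 for Folr2, the slopes were -0.1049 (Siglec1), -0.02405 (Zeb2), -0.03669 (Csf1r) and -0.06041 (Adgre1), and the Marco correlation was -0.148. The difference between responses for Timd4 was 0.1011 with a pseudocount of 0.1, and the response at equal Alb for Vsig4 was -0.4281 with quantile normalization. With 1 library left out, ranges that crossed 0 were -0.3411 to 0.5541 for Folr2 (untreated site difference) and, at equal Alb, -0.6097 to 0.3767 (Cd5l), -0.8677 to 0.0676 (Clec4f), -0.2394 to 0.522 (Vsig4) and -0.002351 to 0.6425 (Folr2). Genes called in all ranged from 2328 to 9444 for the untreated site difference (6586 as reported), 412 to 4840 for the treated one (1313), 83 to 6179 for the liver response (506), 77 to 1016 for the fat pad response (940), 92 to 2599 for their difference (413), 191 to 8927 for slopes (7101) and 0 to 987 at equal Alb (349; the 0 is limma with the block). Depth is unknown, so no floor can be set for values near 0.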
